A study of Mus musculus with 3 samples.

Results

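The genes described here encode the machinery that builds and moves melanosomes and other lysosome-related organelles. They were chosen by symbol and number 33 of the 57180 genes in the deposited table: 8 subunits of BLOC-1, 3 of BLOC-2, 2 of BLOC-3, 5 of AP-3, 6 of HOPS, 5 Rab GTPases, 3 transport effectors, and Lyst. Every member had a count in each of the 3 libraries. The study measured polyadenylated RNA, copied from oligo(dT) primers and amplified with the SMART-Seq HT kit, from wild-type mouse vestibular cells that look like black balls. The labels call these cells macrophages, and the series title speaks of melanocytes. Per the labels' protocols 18 cells came from 9 mice, 3 per group. All 3 libraries share 1 group with no control, and no age or strain of the mice is stated in the sources used here. The labels do not say how cells and mice were divided among the libraries. The p-values therefore speak to the variation from library to library alone, and that variation may be technical.

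Melanosomes and platelet dense granules are lysosome-related organelles, compartments that pigment cells and some blood cells build from the endosomal system that also makes lysosomes. Cargo leaves early endosomes by way of the AP-3 coat and the BLOC-1 and BLOC-2 complexes. BLOC-3 activates the GTPases RAB32 and RAB38, and HOPS tethers late endosomes to lysosomes together with RAB7. Finished melanosomes are held at the cell edge by RAB27A, melanophilin and myosin Va. Many of the members are known from mice with diluted coats: Myo5a is dilute, Rab27a ashen, Mlph leaden, Lyst beige, Rab38 chocolate, Bloc1s6 pallid, Bloc1s5 muted, Dtnbp1 sandy, Ap3b1 pearl, Ap3d1 mocha and Vps33a buff. Pallid, muted and mocha mice also have defects of the otoliths, the mineral bodies on which vestibular hair cells depend.

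The libraries held between 14095521 and 18460546 counts. Markers of macrophages (15 of 18) and of melanocytes (9 of 15) stood above 1 TPM by the test given below. All marker counts here and below are to be read beside the 50.5% of protein-coding genes that passed. Of the melanocyte list Kit, Gpr143, Trpm1, Oca2, Mc1r and Mitf did not pass, and of the macrophage list Cx3cr1, Itgam and Cd163 did not. Oca2 and Mc1r were at 0 in replicates 2 and 3. No marker of either list was at 0 in every library. The macrophage list summed to 9010, 5794 and 6583 TPM in replicates 1, 2 and 3, with Lyz2 and Ctss highest, and the melanocyte list to 582, 707 and 715 TPM, with Dct and Mlana highest. TPM is a level scaled by gene length and then to a common total. Each library is a sum over cells, so fewer cells of a type and less RNA per cell cannot be told apart.

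Expression of the transport genes was uneven between complexes. Of the 33 members, 19 stood above 1 TPM (57.6%), against 37.6% of all 27265 genes tested and 50.5% of the 16219 protein-coding genes tested. The test was limma's moderated test on log2(TPM + 1), one-sided, with Benjamini-Hochberg adjustment over all genes tested and a threshold of 0.05. All 5 AP-3 subunits and 7 of 8 BLOC-1 subunits passed, as did 4 of 6 HOPS subunits, 2 of 5 Rab genes and 1 of 3 transport effectors. No BLOC-2 or BLOC-3 subunit passed, and neither did Lyst. At an unadjusted p under 0.05, 23 of the 33 members stood above 1 TPM, against 41.9% of all genes tested and 56.1% of protein-coding genes. At that threshold 1 of 3 BLOC-2 genes, 1 of 2 BLOC-3 genes and 0 of 1 for Lyst stood above 1 TPM (limma). These calls depend on the settings. Hps5, Hps4 and, against 0.5 TPM only, Hps3 passed on the deposited length under other settings of the test. Hps3, Hps5, Hps1, Hps4 and Lyst passed in CPM, counts scaled to the library total with no length. The median level was 3.44 over the members, 2.32 over protein-coding genes and 1.49 over all genes tested, on the log2(TPM + 1) scale. The median SD between libraries was 0.55 over the members, 0.50 over protein-coding genes, 0.49 over all genes above 1 TPM and 0.46 over all genes tested, on the same scale.

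**Figure D1:**
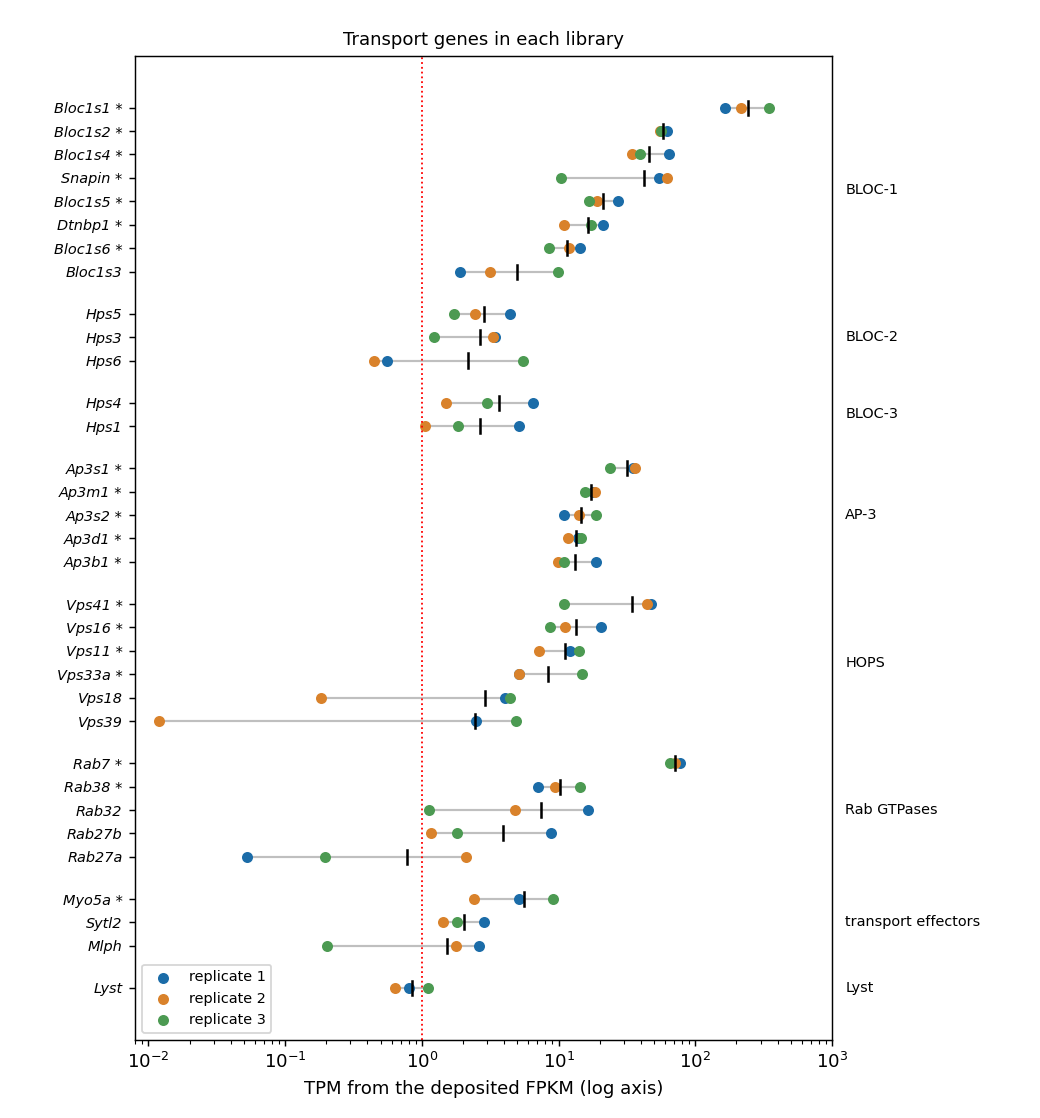
TPM of each member in replicates 1 to 3 (log axis), grouped by complex. Black ticks mark the mean, grey lines the range, the dotted line 1 TPM, and an asterisk a gene above 1 TPM. Bloc1s1 is highest, AP-3 subunits lie close together, and Vps39 in replicate 2 lies furthest left.

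The gene length behind the deposited values bears on every comparison between genes. For 31 of the 33 members the deposited length equalled the sum of all distinct annotated exons of the gene in GENCODE M21, so that a stretch shared by overlapping exons of several transcripts is counted more than once. The deposited length was 1.00 to 3.23 times the length of the merged exons, with a median of 1.39. For Snapin it was 7405 bp, although the gene spans 3008 bp and its merged exons 2290 bp. Rab7 had 7113 bp against 2610 bp, and Hps5 13625 bp against 6497 bp. The more the annotated exons of a gene overlap, the lower its deposited level therefore is relative to its own level with merged exons. With merged exon lengths 21 members stood above 1 TPM (63.6%, against 38.4% of all genes tested and 52.4% of protein-coding genes), the same 19 and Hps5 and Hps4. Without any length, 28 stood above 1 CPM (84.8%, against 43.4% and 65.1%). Below, TPM is on the deposited length unless merged exons are named.

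**Figure D2:**
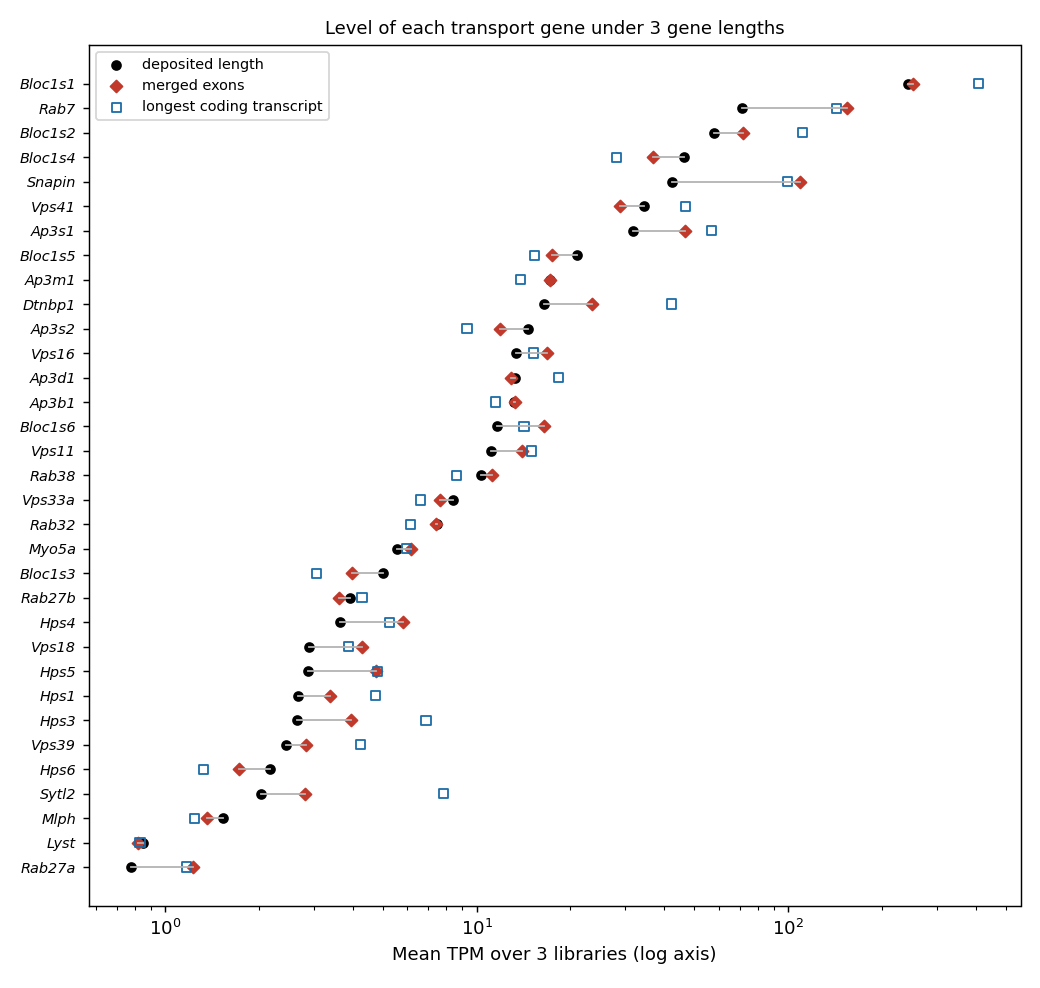
Mean TPM of each member over 3 libraries (log axis) with the deposited length (black circles), merged exons (red diamonds) and the longest coding transcript (open squares). Snapin and Rab7 move furthest to the right with merged exons, from 42.3 to 109 and from 71.0 to 154 TPM.

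A motif stands in the promoters of some members. The choice by symbol did not read promoters, but it took genes of melanosomes and related organelles. The motif may therefore not be independent of that choice, and the search was added after the data were seen. The 6-base E-box CACGTG, which reads the same on both strands, is the core of the sites bound by MITF, the regulator of melanocyte genes, and by its relatives TFEB and TFE3, regulators of lysosomal genes. Of the 33 members 25 had at least 1 promoter in the RefSeq table (build GRCm38.p6), 28 promoters in all, and Sytl2, Ap3s1, Snapin, Vps39, Rab27b, Rab38, Bloc1s6 and Vps11 had none there. The 250 bases before each start were searched on both strands. CACGTG stood in 8 of 28 promoters (28.6%), against 6.02% of all 32851 promoters. The longer TCACGTGA, which contains it, stood in 5 (17.9%), against 0.785%. By gene, these were 8 and 5 of 25 members, against 7.61% and 1.15% of protein-coding genes. Among the other genes of the pathway described further on, 1 and 0 of the 49 with a promoter held them. TCATGTG stood in 1 member promoter, that of Hps1 (3.57%, against 3.25% of all promoters). Mitf itself did not pass the test against 1 TPM (3.01 TPM for replicate 1, 0.817 for replicate 2, 0.492 for replicate 3). A match describes letters and does not show that a factor binds there. Hps5 also held CACGTG. The windows below are shown because they hold TCACGTGA, or CACGTG in a gene of the RAB27A, melanophilin and myosin Va group. Each is on the strand of the RefSeq entry, 5′ to 3′, and lies before the start of that entry, with the match in capitals. That start need not be the outer end of the gene position given below, which is in another build. The bases after the start were looked for in transcripts of the same gene in GENCODE M21. For 5 member promoters on the plus strand and 1 on the minus strand they were not found, so the strand of these was not checked.
Bloc1s1 (chr10:128923525-128923569, minus strand): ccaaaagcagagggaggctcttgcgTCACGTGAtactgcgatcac
Bloc1s3 (chr7:19508371-19508404, minus strand): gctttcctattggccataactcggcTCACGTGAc
Hps3 (chr3:20035311-20035351, minus strand): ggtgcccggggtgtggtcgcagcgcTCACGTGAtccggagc
Vps16 (chr2:130424276-130424319, plus strand): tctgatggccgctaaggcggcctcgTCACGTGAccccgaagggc
Vps33a (chr5:123573016-123573069, minus strand): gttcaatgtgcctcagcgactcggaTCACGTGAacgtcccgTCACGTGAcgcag
Mlph (chr1:90915027-90915082, plus strand): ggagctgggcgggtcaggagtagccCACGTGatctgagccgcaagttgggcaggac
Rab27a (chr9:73063898-73063932, plus strand): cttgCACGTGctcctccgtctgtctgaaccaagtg
Vps33a holds TCACGTGA at 2 places, the nearer ending 6 bases before the start. In Bloc1s3 it ends 2 bases and in Hps3 9 bases before the start, while in Rab27a CACGTG ends 241 bases before it. The genes with TCACGTGA differed widely in level, from Hps3 at 2.65 ± 1.23 TPM through Bloc1s3 at 4.99 ± 4.30, Vps33a at 8.40 ± 5.64 and Vps16 at 13.4 ± 6.23 to Bloc1s1 at 243 ± 94.6 TPM (SD, n = 3, as for all values below).

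BLOC-1, the largest of the complexes, is a rod of 8 small coiled-coil proteins that sorts cargo out of early endosomes. Bloc1s1 (chromosome 10, 128753751 to 128759904, GRCm39, as for all gene positions) stood at 164, 217 and 348 TPM in replicates 1, 2 and 3. It was the highest subunit in 3 of 3 libraries, and its values did not overlap those of any other subunit (limma, adjusted p = 1.63e-05 against 1 TPM). Bloc1s2 (chromosome 19, 44127685 to 44134885) stood at 62.3, 55.5 and 55.9 TPM, a range that no other BLOC-1 subunit matched in narrowness (SD 0.09 on the log2 scale). Both proteins, with snapin, also serve in BORC, the complex that moves lysosomes along microtubules. The pseudogene Bloc1s2-ps had 328, 211 and 250 counts, against 1281, 1040 and 1026 for Bloc1s2, which makes the level of Bloc1s2 uncertain. Bloc1s4, the cappuccino gene (chromosome 5, 36904722 to 36905994), stood at 64.6, 34.5 and 39.6 TPM and passed the test with an adjusted p of 4.48e-05 in limma.

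The other BLOC-1 subunits were lower or more variable. Snapin, first described as a partner of the SNARE protein SNAP25 (chromosome 3, 90395333 to 90398340), stood at 54.5, 61.9 and 10.5 TPM, so replicate 3 was far below the others (limma, adjusted p = 0.00124). Its call ended without replicate 1 (0.073) and without replicate 2 (0.0576). With merged exons Snapin stood at 109 ± 71.4 TPM, above Bloc1s2 and Bloc1s4, which it trailed with the deposited length. Snapin overlaps Ilf2, which had 2887, 2002 and 1269 counts, and Bloc1s1 overlaps Rdh5, with 854, 434 and 466 counts. Whether counting used strand is not stated, so reads of overlapping genes may have been shared.

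Bloc1s5, the muted gene (chromosome 13, 38776818 to 38819085), stood at 27.1, 19.2 and 16.6 TPM. Dtnbp1, encoding dysbindin (chromosome 13, 45075551 to 45155623), stood at 21.0, 11.0 and 17.4 TPM, and Bloc1s6, the pallid gene encoding pallidin (chromosome 2, 122580423 to 122591395), at 14.4, 12.0 and 8.55 TPM. The range of Dtnbp1 overlapped those of Bloc1s5 and Bloc1s6, which did not overlap each other on the deposited length. Each of the 3 passed limma's test with adjusted p between 0.000111 and 0.000509. With merged exons Bloc1s5, at 22.3, 16.1 and 13.9 TPM, and Bloc1s6, at 20.2, 17.1 and 12.2 TPM, did overlap. Dtnbp1 then had the highest mean of the 3, at 23.4 ± 7.05 TPM. Bloc1s3, whose loss gives the reduced pigmentation mouse (chromosome 7, 19238411 to 19242292), was the lowest subunit by mean, at 1.90, 3.16 and 9.90 TPM. In replicate 3 it stood above Bloc1s6 and just below Snapin. It did not pass (limma, adjusted p = 0.0569), but did in CPM (0.0466), with a pseudocount of 0.1 (0.0225) and among genes counted in all 3 libraries (0.0254). With merged exons it was lowest in 3 of 3 libraries. The mean of Bloc1s1 was 48.8 times that of Bloc1s3, and 63.4 times with merged exons.

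AP-3 is the coat adaptor that sorts membrane cargo such as tyrosinase from endosomes towards lysosomes and melanosomes. It is a tetramer of a delta, a beta, a mu and a sigma chain. Its subunits were the most even of the complexes with more than 3 members: the highest mean was 2.41 times the lowest, and 3.93 times with merged exons. All 5 passed limma's test, with adjusted p between 4.7e-05 and 0.000505, and all 5 calls held in each of the 14 alternatives tried. Ap3d1, the delta chain shared by all forms of the complex (chromosome 10, 80542790 to 80578098), stood at 13.9, 11.7 and 14.5 TPM. Ap3m1, the mu chain that binds tyrosine sorting signals (chromosome 14, 21081510 to 21102576), stood at 17.8, 18.4 and 15.5 TPM. These values lay within 1.24 and 1.19 times of one another across libraries. Ap3m1 overlaps Vcl, with 1223, 964 and 0 counts, and the pseudogene Ap3m1-ps had 101, 106 and 3 counts.

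The AP-3 beta chain Ap3b1, the pearl gene (chromosome 13, 94495468 to 94702825), stood at 18.7, 9.92 and 10.9 TPM. Of the alternative sigma chains, Ap3s1 (chromosome 18, 46874943 to 46923893) stood at 34.9, 36.5 and 23.9 TPM and Ap3s2 (chromosome 7, 79525073 to 79570397) at 11.0, 14.1 and 18.7 TPM. The values of Ap3s1 lay above those of Ap3s2 without overlap. Ap3s1 was higher by 1.08 ± 0.65 on the log2(TPM + 1) scale in 3 of 3 libraries, and by 1.89 ± 0.65 with merged exons. A two-sided exact permutation test that flips the sign of each library's difference gave p = 0.25 (adjusted p = 0.536 over 15 gene pairs). With 3 libraries 0.25 is the smallest p this test can give, so no pair can reach 0.05. The pseudogenes Ap3s1-ps1, with 393, 384 and 146 counts, and Ap3s1-ps2, with 175, 158 and 58, make the level of Ap3s1 uncertain.

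AP-3 has a second form with the beta chain Ap3b2 and the mu chain Ap3m2, known chiefly from neurons, and both genes stood above 1 TPM. Ap3b2 stood at 15.1, 8.38 and 10.7 TPM (limma, adjusted p = 0.000618) and Ap3m2 at 38.9, 11.7 and 23.5 TPM (adjusted p = 0.000492). With all genes in the fit the Ap3m2 call ended (adjusted p = 0.0528). The difference between Ap3b1 and Ap3b2 was 0.18 ± 0.13 on the log2(TPM + 1) scale (exact permutation p = 0.25, adjusted p = 0.536), and -0.02 ± 0.13 with merged exons. That between Ap3m1 and Ap3m2 was -0.35 ± 0.87, and -0.13 ± 0.86 with merged exons, Ap3m1 being the higher in 1 of 3 (exact permutation p = 0.75, adjusted p = 0.865). Neither difference was larger than its spread under both lengths. Of 8 neuron markers 4 stood above 1 TPM and none was at 0 in every library, led by Snap25 and Nefl. The neuron list summed to 71.6, 71.8 and 316 TPM, highest in replicate 3, whereas Ap3b2 and Ap3m2 were highest in replicate 1. The part of neurons in the level of these genes was not tested.

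BLOC-2, made of HPS3, HPS5 and HPS6, directs tubules from recycling endosomes to maturing melanosomes. Its 3 genes stood between 0.444 and 5.50 TPM. Hps5 (chromosome 7, 46409890 to 46445488) stood at 4.44, 2.43 and 1.73 TPM, Hps3, the cocoa gene (chromosome 3, 20050109 to 20089479), at 3.43, 3.30 and 1.23 TPM, and Hps6, the ruby-eye gene (chromosome 19, 45991947 to 45994612), at 0.556, 0.444 and 5.50 TPM. Hps3 and Hps5 overlapped in range, and both were lowest in replicate 3, where Hps6 was highest. Hps6 rested on 11, 8 and 97 counts. The differences within BLOC-2 were smaller than their spread: Hps5 minus Hps6 was 0.60 ± 1.63, Hps3 minus Hps6 was 0.51 ± 1.78 and Hps3 minus Hps5 was -0.09 ± 0.36 on the log2(TPM + 1) scale (exact permutation p = 0.75, 0.75 and 1.0, adjusted p = 0.865, 0.865 and 1.0).

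None of the BLOC-2 genes passed limma's test as set out above, with adjusted p of 0.114 for Hps5, 0.151 for Hps3 and 0.578 for Hps6. On the same deposited length Hps5 passed without the mean-variance trend (0.0385) and among genes counted in all 3 libraries (0.0374). Tested against 0.5 TPM, Hps5 (0.0358) and Hps3 (0.0473) passed. The deposited lengths of Hps3 and Hps5 are 1.87 and 2.10 times their merged exons. With merged exons Hps5 stood at 4.77 ± 2.29 TPM and passed (adjusted p = 0.0225), and Hps3 stood at 3.95 ± 1.82 TPM (0.0511). In CPM both passed (adjusted p = 0.000228 and 0.000206) and Hps6 did not (0.488). Hps3 overlaps Cp, the ceruloplasmin gene, which had 4670, 3961 and 2024 counts against 434, 380 and 139 for Hps3.

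BLOC-3, the pair of HPS1 and HPS4, is the exchange factor that loads RAB32 and RAB38 with GTP. Hps4, the light ear gene (chromosome 5, 112490949 to 112526280), stood at 6.47, 1.50 and 3.00 TPM, and Hps1, the pale ear gene (chromosome 19, 42743544 to 42768417), at 5.13, 1.05 and 1.84 TPM. Both were highest in replicate 1 and lowest in replicate 2, and Hps4 was the higher of the 2 in 3 of 3 libraries. Hps1 minus Hps4 was -0.35 ± 0.12 on the log2(TPM + 1) scale, and -0.64 ± 0.13 with merged exons (exact permutation p = 0.25, adjusted p = 0.536 and 0.75). Neither passed limma's test (adjusted p = 0.223 for Hps1 and 0.0911 for Hps4). Hps4 passed on the deposited length with a pseudocount of 0.1 (0.0444) and among genes counted in all 3 libraries (0.0357). It also passed with merged exons (0.0245), and both passed in CPM (0.0067 and 0.00258). Hps1 overlaps the noncoding gene Gm16244, with 115, 3 and 0 counts.

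HOPS tethers late endosomes and autophagosomes to lysosomes before fusion. Vps11, Vps16, Vps18 and Vps33a form a core that HOPS shares with CORVET, the tether of early endosomes, and Vps39 and Vps41 are its own subunits. By mean TPM the own subunits were the highest and the lowest of the complex. Vps41 (chromosome 13, 18901456 to 19050981), the subunit that binds AP-3, stood at 47.8, 44.3 and 10.9 TPM, and Vps39 (chromosome 2, 120146942 to 120183618), which binds RAB7, at 2.49, 0.0119 and 4.85 TPM. The lowest Vps39 value was a single count, against 231 in replicate 1 and 401 in replicate 3. This order held in replicates 1 and 2. In replicate 3 Vps33a and Vps11 stood above Vps41, and Vps39 stood above Vps18. Vps41 passed limma's test (adjusted p = 0.000845) and Vps39 did not (0.464).

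In the shared core, Vps16 (chromosome 2, 130266259 to 130286189) stood at 20.5, 11.1 and 8.68 TPM and Vps11 (chromosome 9, 44259046 to 44272967) at 12.2, 7.15 and 14.0 TPM. Vps33a, the member that binds SNAREs (chromosome 5, 123666722 to 123711101), stood at 5.12, 5.17 and 14.9 TPM. These 3 overlapped in range and passed limma's test, with adjusted p of 0.00077, 0.000827 and 0.00593. Vps18 (chromosome 2, 119119221 to 119128934) stood at 4.09, 0.182 and 4.42 TPM, with 11 counts in replicate 2 against 272 and 262 in the others, and did not pass (adjusted p = 0.318). Vps18 and Vps39 were thus low together in replicate 2, in which Vps41, Vps16 and Vps11 held 2137, 441 and 377 counts. With all 57180 genes in the fit, the calls for Vps33a, Vps41, Snapin and Myo5a ended (limma, adjusted p = 0.111, 0.074, 0.0895 and 0.169). The calls for Vps33a and Vps41 also ended without replicate 1 (limma, adjusted p = 0.0729 and 0.0568) and without replicate 2 (0.0644 and 0.0505), which left 2 of 6 subunits above 1 TPM. Vps16 overlaps Pced1a, with 202, 99 and 220 counts.

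Each own HOPS subunit has a counterpart in CORVET. Vps8, the counterpart of Vps41, stood at 1.57, 2.52 and 3.32 TPM, and Tgfbrap1, the counterpart of Vps39, at 1.28, 1.54 and 2.75 TPM. In 3 of 3 libraries Vps41 was higher than Vps8, by 3.13 ± 1.47 on the log2(TPM + 1) scale and by 2.81 ± 1.47 with merged exons (exact permutation p = 0.25, adjusted p = 0.536 and 0.75). Vps39 minus Tgfbrap1 was -0.02 ± 1.13, with Vps39 higher in 2 of 3 libraries, and 0.63 without replicate 2. Vps33a exceeded its relative Vps33b, which stood at 3.76, 3.23 and 3.89 TPM, by 0.87 ± 0.73 (exact permutation p = 0.25, adjusted p = 0.536). With merged exons that difference was 0.35 ± 0.71, with Vps33a higher in 2 of 3 libraries.

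**Figure D3:**
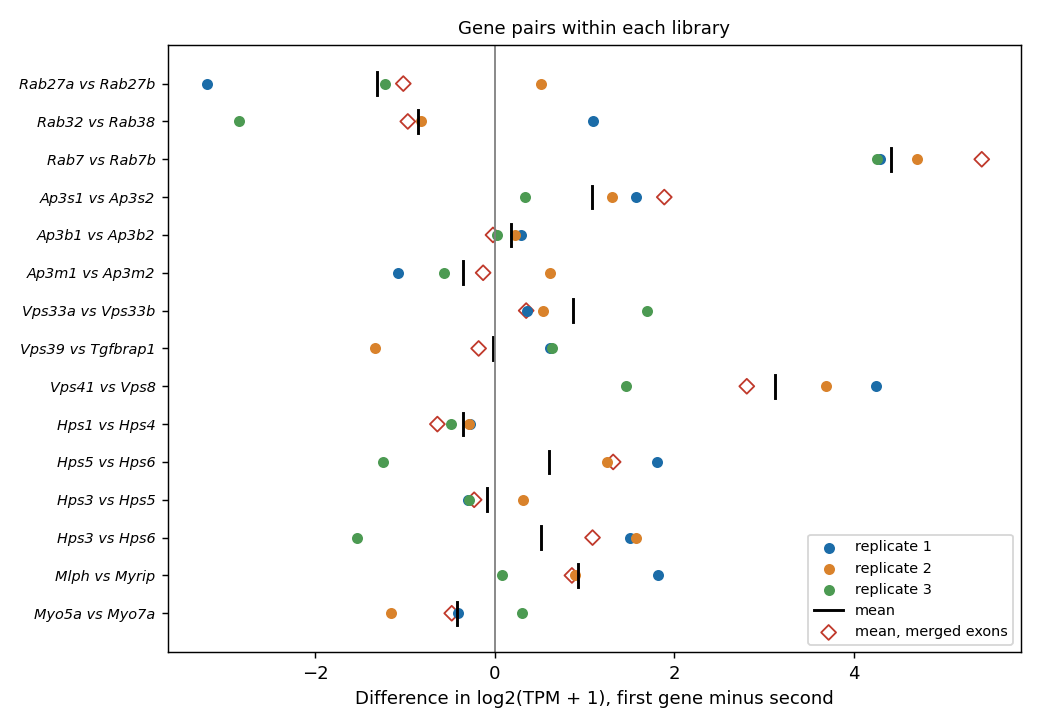
Difference in log2(TPM + 1) between the genes of 15 pairs in each library, first gene minus second. Ticks mark the mean and open diamonds the mean with merged exons. Rab7 exceeds Rab7b by 4.26 to 4.71 in each library, while Rab27a and Rab32 lie on both sides of 0 against their relatives.

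The Rab GTPases differed most among themselves. Rab7, the GTPase of late endosomes and lysosomes in all cells (chromosome 6, 87976088 to 88022252), stood at 77.5, 70.5 and 65.0 TPM, close together and above every other Rab member without overlap (limma, adjusted p = 1.39e-05). With merged exons it stood at 154 ± 12.2 TPM. It exceeded its relative Rab7b, at 3.00, 1.73 and 2.45 TPM, by 4.42 ± 0.25 on the log2(TPM + 1) scale (exact permutation p = 0.25, adjusted p = 0.536). The pseudogene Rab7-ps1 had 624, 254 and 305 counts, against 4092, 3387 and 3060 for Rab7.

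RAB38 and RAB32 deliver melanin enzymes to melanosomes and stand in for each other in melanocytes, and RAB32 also acts in macrophages. Rab38 (chromosome 7, 88079481 to 88140780) stood at 7.12, 9.34 and 14.4 TPM and passed limma's test (adjusted p = 0.00106). Rab32 (chromosome 10, 10420746 to 10434009) stood at 16.4, 4.84 and 1.13 TPM, on 357, 96 and 22 counts, and did not pass (0.0701). It did pass in CPM (0.0487), with a pseudocount of 0.1 (0.0386) and among genes counted in all 3 libraries (0.0338). Rab32 was above Rab38 in replicate 1 and below it in replicates 2 and 3, and the difference of -0.86 ± 1.97 on the log2(TPM + 1) scale lay within its spread (exact permutation p = 0.75, adjusted p = 0.865). The macrophage marker sums given above were highest in replicate 1, as Rab32 was, but Lyz2 carried that order. Without Lyz2 the sums were 2519, 2280 and 2737 TPM, and of the 18 markers 7 were highest and 9 lowest in replicate 1. The melanocyte sums were highest in replicate 3, as Rab38 was, but without Dct they were 345, 466 and 442 TPM. The part of either cell type in these levels was not tested.

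RAB27A links melanosomes to melanophilin and serves granule release in cytotoxic cells and neutrophils, and RAB27B serves secretion in platelets and other cells. Rab27a (chromosome 9, 72952136 to 73004911) was the lowest member by mean, with 0.0528, 2.09 and 0.197 TPM from 3, 108 and 10 counts (limma, adjusted p = 1.0). Its level in replicate 2 was thus set apart from the others. Of 8 neutrophil markers 6 were also highest in that library, with sums of 20.0, 415 and 147 TPM, 3 of 8 above 1 TPM, S100a8 and S100a9 highest, and none at 0 in every library. Cytotoxic T and NK cell markers summed to 14.6, 5.72 and 6.43 TPM, with 0 of 8 above 1 TPM and Prf1 at 0 in all 3. Of 15 melanocyte markers 4, 6 and 5 were highest in replicates 1, 2 and 3. Their sum was highest in replicate 3, but without Dct in replicate 2 (345, 466 and 442 TPM). The part of any of these cell types in the Rab27a values was not tested.

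Rab27b (chromosome 18, 70112202 to 70274676) stood at 8.76, 1.17 and 1.80 TPM, highest in replicate 1, and did not pass with its length (adjusted p = 0.173) but did in CPM (0.00215). Platelet markers, led by Pf4 and Itga2b, summed to 20.1, 38.0 and 50.0 TPM, lowest where Rab27b was highest, with 1 of 5 above 1 TPM and Gp9 at 0 in all 3. Mast cell markers summed to 1.47, 4.25 and 4.08 TPM, with 0 of 6 above 1 TPM, and the part of these cells was not tested. Rab27a minus Rab27b was -1.31 ± 1.86 on the log2(TPM + 1) scale, Rab27a being the higher in replicate 2 alone (exact permutation p = 0.5, adjusted p = 0.833).

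By mean TPM the 3 transport effectors stood below every AP-3 subunit. Only Myo5a, at 5.56 TPM, exceeded a BLOC-1 subunit, Bloc1s3 at 4.99 TPM. In CPM, with no length, Myo5a at 51.0 stood above Ap3b1 at 32.9 and Ap3s2 at 39.4, and below the other AP-3 subunits. Myo5a, the motor myosin Va (chromosome 9, 74978297 to 75130970), stood at 5.10, 2.42 and 9.17 TPM and was the highest effector in each library on the deposited lengths (limma, adjusted p = 0.0216). Its call ended without replicate 1 (0.17) and without replicate 3 (0.148). Replicate 3, where Myo5a was highest, also had the highest neuron marker sum, 316 TPM against 71.6 and 71.8, with 6 of 8 markers highest there. Neurons express Myo5a too, and their part in its level was not tested. Mlph, encoding melanophilin, the adaptor between RAB27A and myosin Va (chromosome 1, 90842807 to 90878864), stood at 2.61, 1.78 and 0.202 TPM, with only 8 counts in replicate 3 (adjusted p = 0.616). Sytl2, another RAB27 effector that binds the plasma membrane (chromosome 7, 89951460 to 90059927), stood at 2.85, 1.43 and 1.82 TPM (adjusted p = 0.238). Sytl2 passed with the length of its longest coding transcript (0.00247) and in CPM (5.46e-05). With the longest transcripts it stood at 7.83 ± 2.69 TPM, above Myo5a at 5.96 ± 3.65 TPM by mean and in replicates 1 and 2.

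The retina uses a parallel transport set of myosin VIIa, RAB27A and MYRIP. Myo7a stood at 7.12, 6.62 and 7.25 TPM, a far narrower range than that of Myo5a (limma, adjusted p = 0.00188). Myo5a minus Myo7a was -0.42 ± 0.73 on the log2(TPM + 1) scale (exact permutation p = 0.5, adjusted p = 0.833). Hair cells depend on myosin VIIa, and 8 of 8 hair cell markers stood above 1 TPM. These markers summed to 614, 481 and 766 TPM, with Pvalb and Ocm highest. Without Pvalb the sums were 533, 384 and 328 TPM. The part of hair cells in the level of Myo7a was not tested. Myrip, the melanophilin relative, held 1, 22 and 6 counts, or 0.0205, 0.496 and 0.138 TPM. In 3 of 3 libraries Mlph exceeded Myrip, by 0.93 ± 0.87 on the log2(TPM + 1) scale (exact permutation p = 0.25, adjusted p = 0.536), with replicate 3 at 0.08.

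Lyst, the beige gene, encodes a very large protein that limits the size of lysosomes and their relatives (chromosome 13, 13764982 to 13953388). It stood at 0.810, 0.637 and 1.10 TPM, on 127, 91 and 154 counts, the highest value being 1.73 times the lowest. It did not pass limma's test per length (adjusted p = 1.0), and did in CPM (0.00691). Of the 5 related genes with a BEACH domain 1 passed, Wdfy3, at 5.39 ± 1.61 TPM, followed by Lrba at 2.63 ± 0.791 TPM, which did not (adjusted p = 0.00845 and 0.116). The call for Wdfy3 ended without replicate 1 (0.0889) and without replicate 3 (0.0692).

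Other genes of the same transport route were counted from a list of 60, of which Vamp7 was not analysed here and Sytl5 was at 0 in every library. Of the 58 tested, 36 stood above 1 TPM, against the 37.6% of all genes and 50.5% of protein-coding genes given above. All 5 BORC genes passed, led by Borcs7 at 77.0 ± 7.95 and Kxd1 at 52.3 ± 14.6 TPM. All 5 SNAREs passed, led by Vti1b at 295 ± 39.6 and Stx7 at 93.5 ± 46.8 TPM. Of 8 AP-1 subunits 6 passed, led by Ap1s1 at 74.8 ± 35.1 and the epithelial mu chain Ap1m2 at 39.2 ± 16.1 TPM. Of 7 further small GTPases 5 passed, led by Rab11a of recycling endosomes at 117 ± 32.5 and Rab9 at 113 ± 54.6 TPM.

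Among regulators, 5 of 7 passed, led by the prenylation subunit Rabggtb at 22.2 ± 2.02 and the RAB7 activator Ccz1 at 14.2 ± 3.69 TPM. Of 5 motors 3 passed, led by the kinesin Kif5b at 40.7 ± 11.0 TPM and then Myo7a. Of 4 genes of CORVET and the VPS33B complex 2 passed, Vipas39 at 11.7 ± 7.28 and Vps33b at 3.63 ± 0.350 TPM, and the Vps33b call ended without any 1 of the libraries (limma, adjusted p between 0.111 and 0.137). Of 10 Rab effectors tested 2 passed. These were the RAB7 effector Rilp at 8.27 ± 2.73 TPM and Mreg, encoding melanoregulin, at 28.1, 4.34 and 2.45 TPM. The Mreg call ended with merged exons (adjusted p = 0.0542) and without any 1 of the libraries (between 0.111 and 0.186). The Rilp call ended without replicate 1 (0.0569). With all genes in the fit the calls for Vipas39, Wdfy3 and Mreg ended as well (limma, adjusted p = 0.0768, 0.052 and 0.344).

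**Figure D4:**
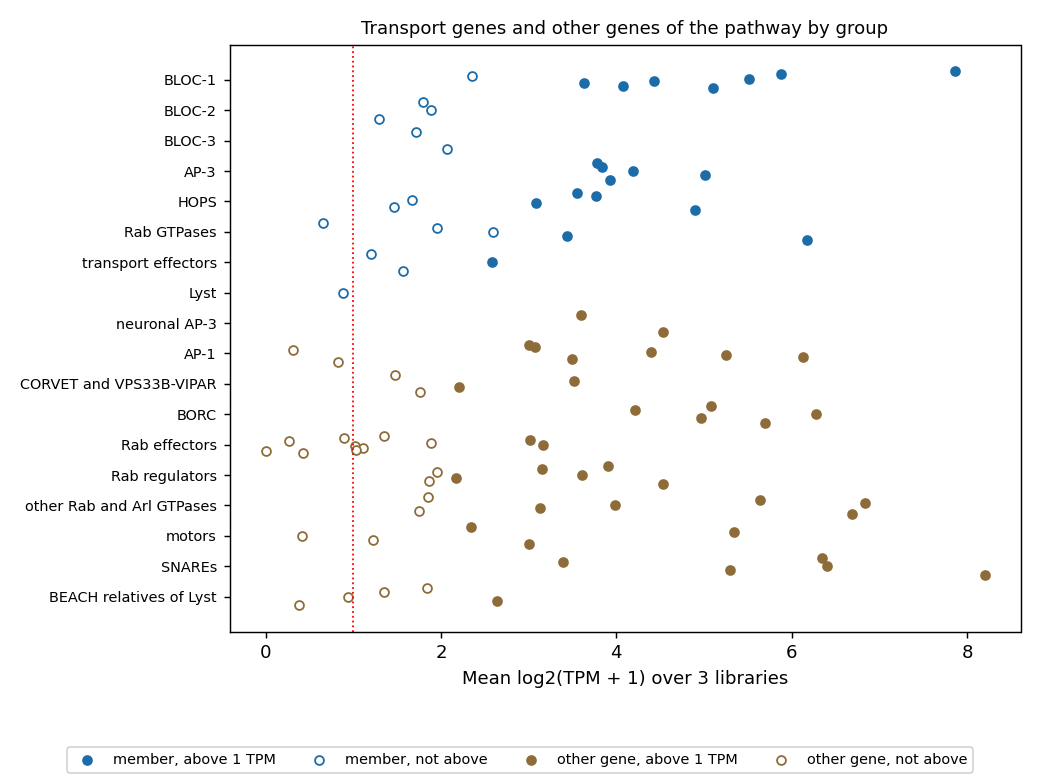
Mean log2(TPM + 1) over 3 libraries of the 33 members (blue) and 59 other genes of the pathway (brown), by group. Filled points stood above 1 TPM (dotted line, limma) and open points did not. BORC, SNARE and AP-3 genes are all filled, and Rab effectors lie mostly near the line or left of it.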

How the data were processed

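Per the file headers, the deposited values are whole-number counts and FPKM, by gene and library. Tools named in the submitters' processing notes are HISAT2, StringTie, edgeR and, as build, GRCm39, with no roles or versions. Dividing each count by the library total and by the authors' FPKM gave the same length within 0.0008% in all libraries for genes with 100 or more counts in each, and the median over libraries was used for every gene. That length matched the sum of distinct exons in GENCODE M21 within 1% for 91.9% of 25973 genes. FPKM was rescaled to TPM and analysed as log2(TPM + 1) in limma 3.58.1 (R 4.3.3), intercept only, with a mean-variance trend, over 27265 genes with a count. The fit was tested on simulated data of known level, with a criterion for passing only at a low simulated spread between libraries. Gene pairs were compared within libraries by an exact sign-flip permutation test. Merged exon and longest transcript lengths came from GENCODE M21 (GRCm38, lengths only) and were added after the data were seen, as were the promoter motifs. The named genes are all members, both genes of each pair, the 2 highest genes of each pathway group and, of each marker list, the 2 highest and those at 0. Macrophage and melanocyte markers that did not pass are named too. The members and lists were chosen with earlier results of these data known. Counts may include PCR copies, which the limit of 3 counts does not cover. Depth ranged from 14095521 to 18460546 counts, at which 3 counts are 0.213 to 0.163 CPM.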

Additional observations from a re-analysis of the deposited data

How the results depend on the processing

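Across 14 alternatives 18 of the 33 members kept their call, 13 above 1 TPM and 5 not. The number of members above the level tested ranged from 15 to 28. It was 15 above 1 TPM without replicate 1 or with no filter on low values, and 15 above 5 TPM. The 28 stood above 1 CPM, a level of another kind because it has no gene length. The number of other pathway genes was 22 when tested against 5 TPM in place of 36, and 26 to 32 with 1 library left out. Against 5 TPM, Myo5a and Vps33b lay below the level tested, by -0.01 and -0.38 (log2). Changed signs of gene pairs were as follows, on the log2 scale. In CPM, Ap3b1 minus Ap3b2 was -0.48, Ap3m1 minus Ap3m2 was 0.49, Hps3 minus Hps5 was 0.18 and Myo5a minus Myo7a was 0.21. With merged exons Ap3b1 minus Ap3b2 was -0.02. With longest transcripts it was -0.53, and Hps3 minus Hps5 was 0.41. With a pseudocount of 5, Vps39 minus Tgfbrap1 was 0.07. With 1 library left out, Rab32 minus Rab38 ranged from -1.84 to 0.14, Ap3m1 minus Ap3m2 from -0.83 to 0.02, Vps39 minus Tgfbrap1 from -0.36 to 0.63, Hps5 minus Hps6 from -0.00083 to 1.53, Hps3 minus Hps5 from -0.29 to 0.02 and Hps3 minus Hps6 from -0.02 to 1.54. Apart from the choice of length, the cause of these changes was not tested. No paired analysis was possible because the labels give 1 group. Low counts limit Rab27a, Vps39, Vps18, Mlph, Hps6 and Rab32, each with under 25 counts in at least 1 library.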
